A study of Mus musculus with 9 samples.

Results

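The genes described are 4 chemokines of the monocyte chemoattractant family, Ccl2, Ccl7, Ccl8 and Ccl12, the chemokine receptor Ccr2, and Ly6c2, which encodes a surface antigen of blood monocytes. They were taken by gene symbol from the deposited expression table, which holds 32761 genes, and all 6 were found. Levels are in FPKM, a sequenced-fragment measure corrected for how long a transcript is and how many fragments a library gave, so different genes can be compared. All 6 passed the floor for testing, an average of 0.5 FPKM over the 9 libraries.

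Chemokines are small secreted proteins that direct the movement of leukocytes. CCL2, CCL7 and CCL12 are ligands of CCR2, the receptor through which Ly6C-high (classical) monocytes leave the bone marrow and enter inflamed tissue and tumours, where many become macrophages. Mouse CCL8 belongs to the same gene cluster but is best known as a ligand of CCR8, a receptor of some T helper and regulatory T cells. CCR2 and Ly6C are lost as monocytes mature into macrophages, whereas the chemokines are made by macrophages, stromal cells and tumour cells.

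RNA sequencing was done on mouse tumours grown in situ from Hepa1-6-luc, a luciferase-marked mouse hepatoma line, and harvested on day 14. There were 3 tumours in each of 3 groups, which share the tumour model. Lenvatinib+anti-PD1 mice received free lenvatinib, an inhibitor of VEGF and FGF receptor kinases, every 3 days, with an antibody to the T cell inhibitory receptor PD1 at 50 µg per injection every 4 days. Co+Len@OVA+anti-PD1 mice received drug-loaded nanoclusters at 2 mg/mL every 3 days with the same antibody, all by tail vein. What the Control mice were given, what Co stands for, and the strain and age of the mice are not stated in the labels. Neither treatment was sequenced without the antibody, so drug, carrier and antibody cannot be told apart against Control. Each comparison asks how the level of these genes differed between a pair of groups, and the 2 comparisons with Control share its 3 libraries.

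The third library of each group stood apart in one respect. Where libraries 1 and 2 were over 4-fold apart, library 3 took an intermediate value in 94.6% of 355 Control genes. In the treated groups this held for 97.8% of 316 genes with Lenvatinib+anti-PD1 and 97.8% of 369 genes with Co+Len@OVA+anti-PD1. The same check made on library 1 or on library 2 of a group gave 9.52% to 78.6%. The level of library 3 fell between the other two for 6 of the 6 genes described here in Control, 5 with Lenvatinib+anti-PD1 and 4 with Co+Len@OVA+anti-PD1. Over 192 Control, 66 Lenvatinib+anti-PD1 and 47 Co+Len@OVA+anti-PD1 genes, a weighted mean of libraries 1 and 2 came close to library 3. The median deviation was 0.0445, 0.0382 and 0.0507 on the log2 scale, in that order. The third libraries may thus not be independent tumours. An SD with n = 3 or a p-value from all 9 libraries may then understate the spread. Counts of calls are therefore given with and without the third libraries. Control library 1 was the lowest of its group by more than 2-fold for 725 genes, against 170 and 17 for the other two Control libraries. Column totals were 331610 to 372790 FPKM and 23575 to 26298 genes were above 0 per library. No read counts could be recovered, so the depth behind each value is unknown.

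Promoter sequence was at hand for Ccl8, Ccl12, Ccr2 and Ly6c2. The pair shown are Ccl8 and Ccl12, the 2 chemokines with the largest differences between the treatment groups. They are neighbours on chromosome 11 of GRCm38.p6, both on the plus strand. The 250 bases before the RefSeq start site lie at chr11:82114935-82115184 for Ccl8 and chr11:82101595-82101844 for Ccl12, and the capitals mark a TATAAAA motif.
Ccl8: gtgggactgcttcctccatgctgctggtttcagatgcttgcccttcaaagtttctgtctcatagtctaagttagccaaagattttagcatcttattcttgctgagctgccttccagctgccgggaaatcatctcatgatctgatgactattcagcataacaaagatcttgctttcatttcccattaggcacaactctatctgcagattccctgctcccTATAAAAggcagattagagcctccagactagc
Ccl12: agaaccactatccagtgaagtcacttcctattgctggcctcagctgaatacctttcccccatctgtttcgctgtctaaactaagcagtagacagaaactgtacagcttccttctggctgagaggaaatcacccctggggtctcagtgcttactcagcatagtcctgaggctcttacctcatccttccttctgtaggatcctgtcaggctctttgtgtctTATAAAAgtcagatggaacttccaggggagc

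The motif begins 32 bases before the start site of Ccl8 and 31 bases before that of Ccl12. TATAAAA, on either strand, occurs in 5.48% of 32851 RefSeq windows that run from 250 bases before to 50 after a start site, and it was searched after these sequences had been read. The 2 windows aligned over 186 bases, of which 65.1% were identical. Motifs of inflammatory transcription factors were searched on both strands of the same windows. They were the core of the interferon-stimulated response element, GAAA repeated after NN (in 3.44% of all windows), the STAT site TTCNNNGAA (8.3%), the AP-1 site TGANTCA (7.81%) and the kappaB consensus (4.51%). None of those letters occurred in the windows of Ccl8, Ccl12, Ccr2 or Ly6c2. The last bases of the Ly6c2 windows, after the start site, matched no GENCODE M21 transcript of that gene. Those of the Ccl8, Ccl12 and Ccr2 windows did match, so for Ly6c2 the search may not cover the promoter in use.

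The 4 chemokines were all higher in Co+Len@OVA+anti-PD1 tumours than in Control tumours, and the 3 libraries of the first group lay above all 3 of the second for each. Ccl8 was the most abundant of the 6 genes in all 9 libraries, and Ccl7 showed the largest difference. No such difference was found for the receptor Ccr2, whose mean level was almost equal in the 2 groups. Its Control libraries ran from 0.466 to 6.44 FPKM, so a difference could have been missed. Ly6c2 was 1.80-fold higher in mean FPKM.

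Ccl2 (ENSMUSG00000035385), the first-described CCR2 ligand, was at 0.495, 2.41 and 1.94 FPKM in Control libraries 1 to 3. It was at 2.37, 3.72 and 3.38 FPKM in Lenvatinib+anti-PD1 and at 7.30, 10.3 and 9.13 FPKM in Co+Len@OVA+anti-PD1. The Co+Len@OVA+anti-PD1 libraries were the 3 highest, whereas the lowest Lenvatinib+anti-PD1 library was just below the highest Control library. Group means were 1.61 ± 0.998, 3.16 ± 0.704 and 8.92 ± 1.54 FPKM (SD, n = 3) in the order Control, Lenvatinib+anti-PD1, Co+Len@OVA+anti-PD1. The mean was thus 5.53 times the Control mean in Co+Len@OVA+anti-PD1 and 1.95 times in Lenvatinib+anti-PD1. Ccl2 rose against Control in Co+Len@OVA+anti-PD1, with a log2 fold change of 2.28 (SE 0.38) on the log2(FPKM + 0.5) scale and an adjusted p of 0.00366 in limma. That scale understates the change of low genes, and all fold changes on a log2 scale below are on it. Against Lenvatinib+anti-PD1 the log2 fold change was 1.37 (adjusted p 0.0293 in limma). That call was lost in 9 of 20 other settings, among them the omission of any 1 library of either treated group (adjusted p 0.0523 to 0.0924). The 0.91 of Lenvatinib+anti-PD1 against Control did not pass the threshold of 0.05 (adjusted p 0.116).

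Ccl7 (ENSMUSG00000035373), a ligand shared by CCR1, CCR2 and CCR3, was the lowest of the 6 genes in each Control library, at 0.110, 1.20 and 0.802 FPKM. Its Lenvatinib+anti-PD1 values of 1.49, 7.29 and 3.12 FPKM were the most scattered of the 6 genes in that group. In Co+Len@OVA+anti-PD1 it was at 8.55, 9.73 and 8.80 FPKM. The 3 groups did not overlap, and they kept the order Control, Lenvatinib+anti-PD1, Co+Len@OVA+anti-PD1. Ccl7 rose against Control in both treated groups in limma, by 3.11 (SE 0.51, adjusted p 0.00367) in Co+Len@OVA+anti-PD1 and 1.79 (SE 0.51, adjusted p 0.0387) in Lenvatinib+anti-PD1 on the log2 scale. The second call rests on few libraries: without Lenvatinib+anti-PD1 library 2, the highest, its adjusted p was 0.0935, and it missed the threshold in 10 of 20 other settings. The difference of 1.31 (SE 0.51) between the treatments did not pass (adjusted p 0.0855), although the libraries were separate.

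Lenvatinib+anti-PD1 library 2 was also the library with the most skeletal muscle RNA. The summed level of 6 muscle markers was 3792 FPKM there, 1511 FPKM in library 3 and 26.2 FPKM in library 1, against 1.29 to 36.2 FPKM in Control and 32.2 to 39.6 FPKM in Co+Len@OVA+anti-PD1. Ccl7 ran in the same order across the 3 Lenvatinib+anti-PD1 libraries, as did Ccl11, the neighbouring eotaxin gene, at 0.141, 2.98 and 0.789 FPKM. Ccl2 did so too, at 2.37, 3.72 and 3.38 FPKM, whereas Ccl12 ran in the reverse order, at 3.22, 2.30 and 2.61 FPKM. The order was not particular to muscle: adipocyte markers summed to 46.4, 566 and 256 FPKM and fibroblast markers to 246, 569 and 379 FPKM in libraries 1 to 3. Ccl8 and Ccr2 hardly varied among those libraries, with a highest-to-lowest ratio of 1.03 and 1.05. Library 3 of this group lay between the other libraries for 97.8% of genes over 4-fold apart. A shared order thus adds little to being higher in library 2 than in library 1. The part of muscle or other tissue in the Ccl7 values was not tested.

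Ccl8 (ENSMUSG00000009185) was at 10.8, 46.4 and 40.1 FPKM in Control. It was nearly constant in Lenvatinib+anti-PD1, at 20.4, 19.7 and 20.1 FPKM, and reached 163, 119 and 146 FPKM in Co+Len@OVA+anti-PD1. The Lenvatinib+anti-PD1 libraries lay inside the Control range, and every Co+Len@OVA+anti-PD1 library lay above both other groups. Ccl8 rose in Co+Len@OVA+anti-PD1 in limma, with a log2 fold change of 2.35 (SE 0.47, adjusted p 0.00799) against Control and of 2.79 (SE 0.47, adjusted p 0.00410) against Lenvatinib+anti-PD1. The mean of 143 ± 22.1 FPKM (SD, n = 3) compares with 32.43 ± 19.01 FPKM in Control and 20.1 ± 0.317 FPKM in Lenvatinib+anti-PD1. The difference between Lenvatinib+anti-PD1 and Control was -0.43 and did not pass (adjusted p 0.542).

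Ccl12 (ENSMUSG00000035352), a CCR2 ligand of rodents, was at 0.347, 2.57 and 2.21 FPKM in Control and at 3.22, 2.30 and 2.61 FPKM in Lenvatinib+anti-PD1. In Co+Len@OVA+anti-PD1 it was at 9.17, 10.9 and 11.8 FPKM. Control and Lenvatinib+anti-PD1 overlapped, and Co+Len@OVA+anti-PD1 stood above both. Ccl12 rose in limma by 2.53 (SE 0.44, adjusted p 0.00432) on the log2 scale against Control and by 1.79 (SE 0.44, adjusted p 0.0183) against Lenvatinib+anti-PD1, while 0.73 for Lenvatinib+anti-PD1 against Control did not pass (adjusted p 0.256). The call between the treatments was lost in 4 of 20 other settings, including without Co+Len@OVA+anti-PD1 library 3 (adjusted p 0.0656) and without Lenvatinib+anti-PD1 library 2 (adjusted p 0.0564) or 3 (adjusted p 0.0603).

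Ccr2 (ENSMUSG00000049103) was at 0.466, 6.44 and 4.17 FPKM in Control, the widest spread of any of the 6 genes in any group at 13.8-fold. It was at 2.22, 2.34 and 2.28 FPKM in Lenvatinib+anti-PD1 and at 4.53, 2.62 and 3.95 FPKM in Co+Len@OVA+anti-PD1. The highest and the lowest Ccr2 value of the study were thus both in Control, and both treated groups lay inside the Control range. The means of 3.69 ± 3.02, 2.28 ± 0.0558 and 3.70 ± 0.978 FPKM (SD, n = 3) gave a ratio of 1.00 between Co+Len@OVA+anti-PD1 and Control. Ccr2 passed in no comparison in limma, with 0.39 (SE 0.63, adjusted p 0.661) for Co+Len@OVA+anti-PD1 and -0.18 (SE 0.63, adjusted p 0.867) for Lenvatinib+anti-PD1 against Control. The treated groups did not overlap, Co+Len@OVA+anti-PD1 being higher by 0.57 (SE 0.63, adjusted p 0.519). These SEs were the largest of the 6 genes.

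Ly6c2 (ENSMUSG00000022584) was at 3.29, 5.18 and 4.96 FPKM in Control, at 3.02, 3.18 and 3.26 FPKM in Lenvatinib+anti-PD1 and at 8.02, 7.49 and 8.67 FPKM in Co+Len@OVA+anti-PD1. The 3 groups were separate, with Lenvatinib+anti-PD1 lowest, although its highest library was just below the lowest Control library. Ly6c2 rose in Co+Len@OVA+anti-PD1 in limma by 0.80 (SE 0.15, adjusted p 0.00569) on the log2 scale against Control and by 1.23 (SE 0.15, adjusted p 0.000790) against Lenvatinib+anti-PD1. The -0.42 of Lenvatinib+anti-PD1 against Control did not pass (adjusted p 0.0744). Its levels carry an uncertainty that the other genes do not: a Ly6c2 transcript and its paralog Ly6c1, an endothelial and lymphocyte antigen, were 97.6% identical over 822 bases in GENCODE M21. Of the 150-base words of Ly6c2 transcripts, 1.42% also occurred in Ly6c1, so fragments may have been split between the 2 genes.

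**Figure D1:**
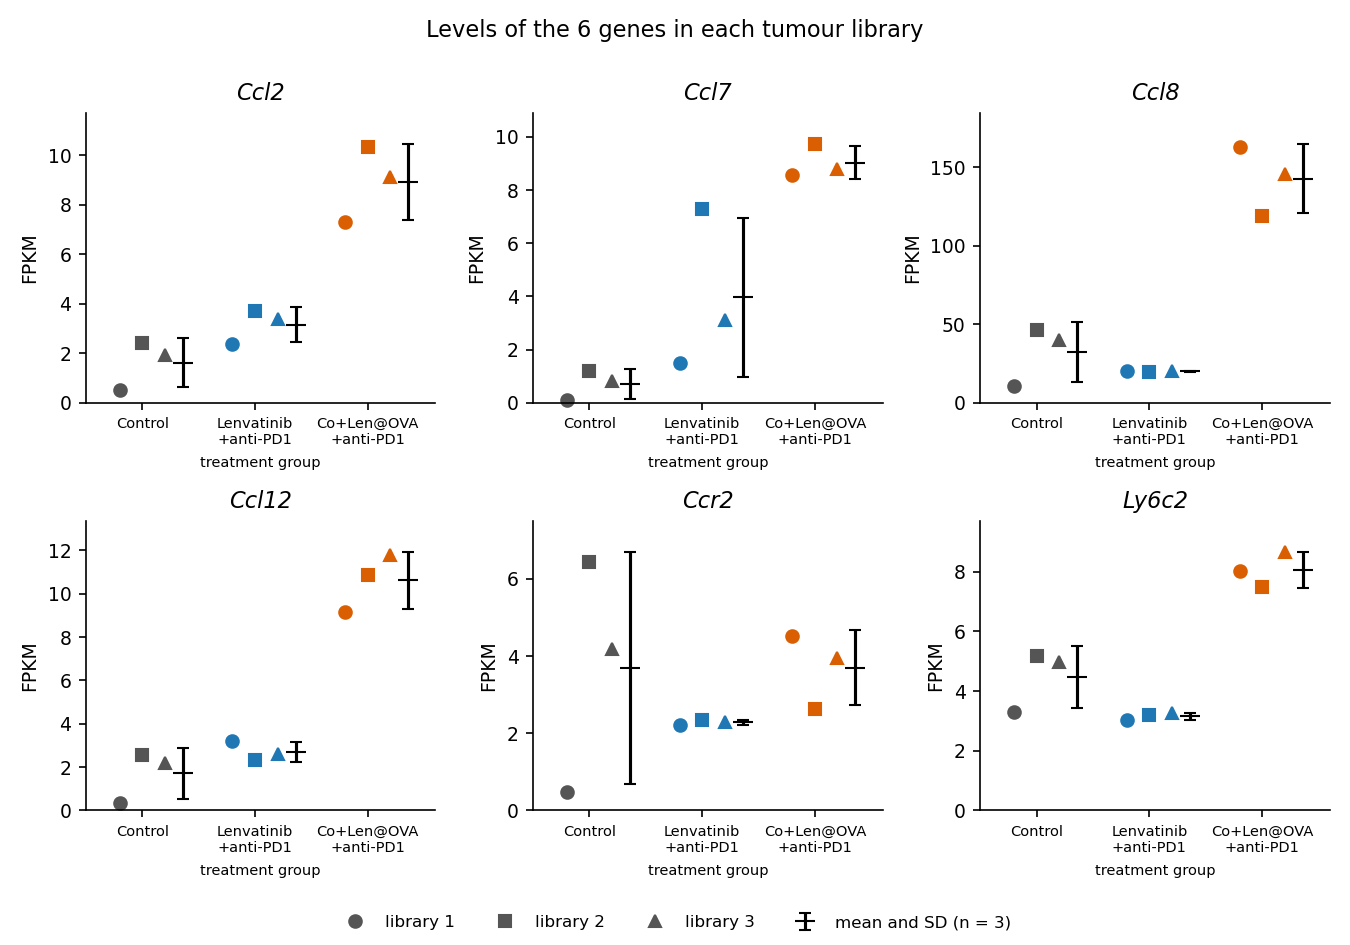
Level in FPKM (vertical axis, linear, from 0) of the 6 genes in each of the 9 tumour libraries, by treatment group on the horizontal axis. Circles, squares and triangles are libraries 1, 2 and 3, and black marks are the group mean and SD (n = 3). The 4 chemokines and Ly6c2 are highest in all 3 Co+Len@OVA+anti-PD1 libraries, while the Ccr2 values of both treated groups lie inside the Control range of 0.466 to 6.44 FPKM.

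The libraries of Co+Len@OVA+anti-PD1 lay wholly above those of Control for 5 of the 6 genes (32.4% of all genes tested) and above those of Lenvatinib+anti-PD1 for 6 of the 6 (34.3%). Lenvatinib+anti-PD1 lay wholly above Control for Ccl7 (26.1% of all genes) and wholly below for Ly6c2 (17.4%). Counted by test, 5 of the 6 genes rose in Co+Len@OVA+anti-PD1 against Control and none fell, where 20.9% of the 15353 genes tested rose. Their median log2 fold change was 2.32 against 0.13 over all genes tested. Against Lenvatinib+anti-PD1, 4 of the 6 rose in Co+Len@OVA+anti-PD1 (17.3% of all genes), with a median of 1.34 against 0.07. In Lenvatinib+anti-PD1 against Control 1 of the 6 rose, Ccl7 (13.8% of all genes), which is near the background, and the median was 0.28 against 0.05. In these bulk samples a larger number of cells of one type and more RNA per cell cannot be told apart.

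Without the third libraries, 0 of the 6 genes passed in limma in any of the 3 comparisons, where 0.521%, 0.345% and 2.38% of all genes passed, in the order Co+Len@OVA+anti-PD1 against Control, Lenvatinib+anti-PD1 against Control, and Co+Len@OVA+anti-PD1 against Lenvatinib+anti-PD1. At an unadjusted p under 0.05 the counts were 5, 0 and 3 of 6, where 22.0%, 16.7% and 18.7% of all genes passed. The fold changes hardly moved: Co+Len@OVA+anti-PD1 against Control gave 2.44 for Ccl2, 3.24 for Ccl7, 2.70 for Ccl12 and 0.83 for Ly6c2 on the log2 scale, with limma's adjusted p from 0.114 to 0.135, and Ccl8 also missed the threshold (adjusted p 0.132). All 5 remained higher in Co+Len@OVA+anti-PD1 with about the same fold change, but their calls were lost.

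Leaving out Control library 1, in which 5 of the 6 genes were at their lowest level of the study, mattered more for the sizes. Against the other two Control libraries, Ccl2, Ccl7, Ccl8, Ccl12 and Ly6c2 still passed as higher in Co+Len@OVA+anti-PD1 in limma, their log2 fold changes being 1.81, 2.68, 1.70, 1.94 and 0.62 with an adjusted p of 0.000204 to 0.00690, where 31.7% of all genes passed in either direction. Lenvatinib+anti-PD1 was then lower than Control for 3 of the 6 genes, where 17.4% of all genes passed as lower. These were Ccl8 at -1.08 (adjusted p 0.00115 in limma), Ccr2 at -1.03 (adjusted p 0.0130) and Ly6c2 at -0.61 (adjusted p 0.00137). Ccl7 no longer passed in that comparison (1.36, adjusted p 0.0707). Between the treatments 5 of the 6 then passed, all higher in Co+Len@OVA+anti-PD1, where 27.5% of all genes passed as higher, and Ccr2 just missed (adjusted p 0.0586). The direction of Ccr2 in Co+Len@OVA+anti-PD1 against Control turned, to -0.47 (adjusted p 0.157).

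**Figure D2:**
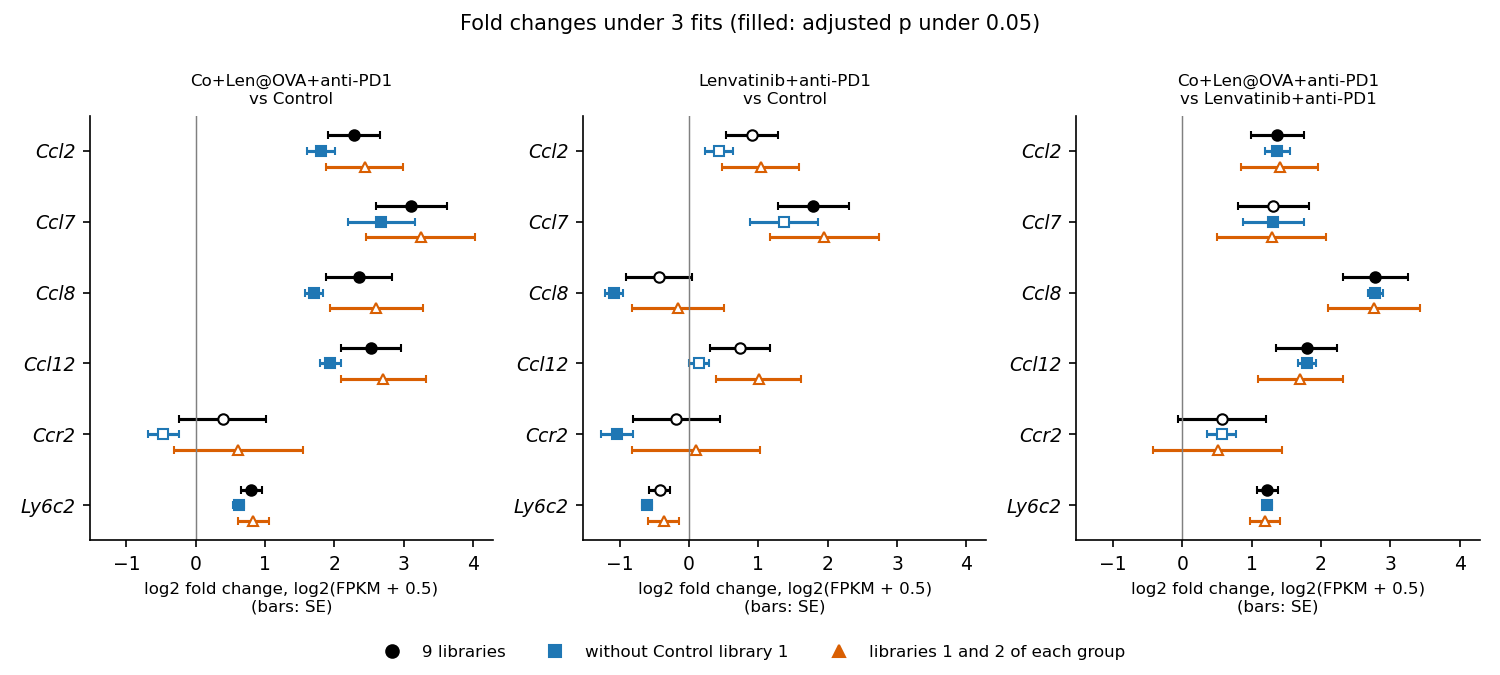
Log2 fold change on the log2(FPKM + 0.5) scale with its SE as bars (horizontal axis), of the 6 genes (vertical axis) in each of the 3 comparisons, from all 9 libraries, without Control library 1, and from libraries 1 and 2 of each group. Filled symbols have an adjusted p under 0.05 in limma; the 4 chemokines and Ly6c2 stay above 0 in Co+Len@OVA+anti-PD1 against Control under all 3 choices, from 0.62 to 3.24, but no symbol is filled when only libraries 1 and 2 are used.

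The make-up of the chemokine signal differed between the groups. The 4 chemokines summed to 11.7 to 52.6 FPKM in Control, 27.5 to 33.1 FPKM in Lenvatinib+anti-PD1 and 150 to 188 FPKM in Co+Len@OVA+anti-PD1. Ccl8 supplied 88.3% to 91.9% of that sum in Control, 59.7% to 74.2% in Lenvatinib+anti-PD1 and 79.4% to 86.7% in Co+Len@OVA+anti-PD1, so its share was highest in Control and lowest in Lenvatinib+anti-PD1 with no overlap between groups. Within a library these shares do not depend on the scaling of the library. Ccl8 was 19.3 to 21.8 times Ccl2 in Control although both varied over 4-fold among those libraries. The same ratio was 5.31 to 8.61 in Lenvatinib+anti-PD1 and 11.5 to 22.4 in Co+Len@OVA+anti-PD1. The 3 CCR2 ligands alone, Ccl2, Ccl7 and Ccl12, summed to 0.952 to 6.17, 7.08 to 13.3 and 25.0 to 31.0 FPKM in the 3 groups, which were separate. The Ccl7 level was 0.222 to 0.498 of the Ccl2 level in Control, 0.631 to 1.96 in Lenvatinib+anti-PD1 and 0.941 to 1.17 in Co+Len@OVA+anti-PD1.

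Read against Csf1r, the receptor for the macrophage growth factor and a gene of monocytes and macrophages, the 4 ligands were higher in both treated groups than in Control. Csf1r was at 7.80, 53.0 and 36.2 FPKM in Control, 12.0 to 13.8 FPKM in Lenvatinib+anti-PD1 and 43.0, 30.7 and 37.3 FPKM in Co+Len@OVA+anti-PD1. As a percent of Csf1r in the same library, Ccl2 was 4.54 to 6.34 in Control, 19.7 to 26.9 in Lenvatinib+anti-PD1 and 17.0 to 33.7 in Co+Len@OVA+anti-PD1. Both treated groups stood above Control on this scale and overlapped each other, as they did for Ccl7 and for Ccl12. Ccl7 was 1.41 to 2.26 percent of Csf1r in Control, 12.5 to 52.7 in Lenvatinib+anti-PD1 and 19.9 to 31.7 in Co+Len@OVA+anti-PD1. Ccl12 was 4.45 to 6.11 percent of Csf1r in Control, 16.7 to 26.9 in Lenvatinib+anti-PD1 and 21.3 to 35.4 in Co+Len@OVA+anti-PD1. Ccl8 differed from the other ligands in keeping the treatments apart, at 87.6 to 138 percent of Csf1r in Control, 143 to 170 in Lenvatinib+anti-PD1 and 379 to 390 in Co+Len@OVA+anti-PD1. Ccr2 was highest per Csf1r in Lenvatinib+anti-PD1, at 16.9 to 18.6 percent, against 5.97 to 12.2 in Control and 8.54 to 10.6 in Co+Len@OVA+anti-PD1. Ly6c2 did not separate the groups on this scale, at 9.77 to 42.2 percent in Control, 23.0 to 25.2 in Lenvatinib+anti-PD1 and 18.6 to 24.4 in Co+Len@OVA+anti-PD1. These ratios are descriptions without a test.

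**Figure D3:**
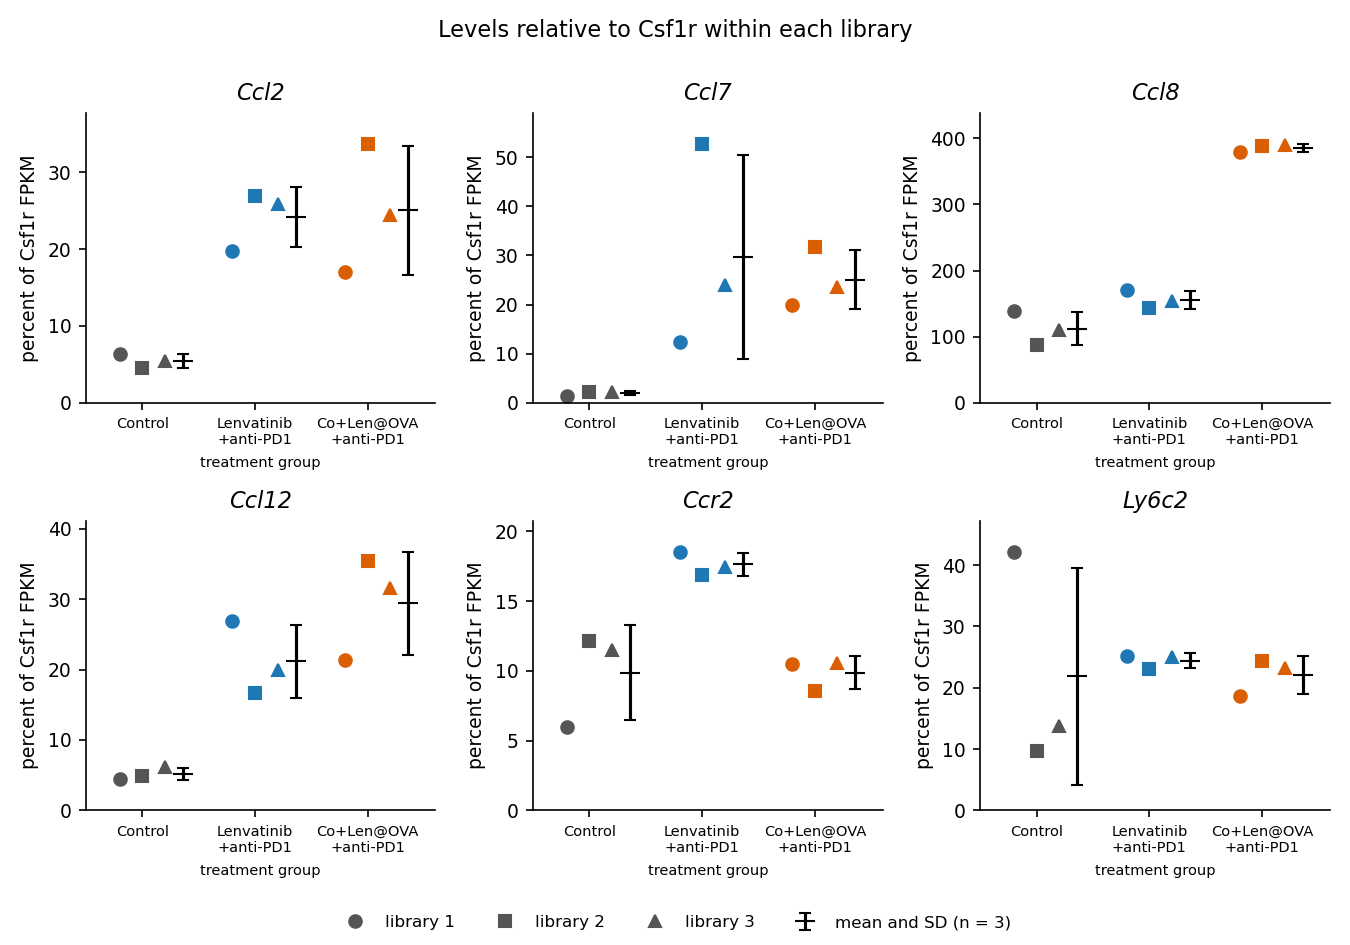
FPKM of each of the 6 genes as a percent of Csf1r FPKM in the same library (vertical axes, linear, from 0), by treatment group. Symbols are single libraries (circle 1, square 2, triangle 3), and black marks are the mean and SD (n = 3). Ccl2, Ccl7 and Ccl12 are above Control in both treated groups, Ccl8 reaches 379 to 390 percent only in Co+Len@OVA+anti-PD1, and Ccr2 is highest in Lenvatinib+anti-PD1.

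Ccr1, Ccr3, Ccr8 and the decoy Ackr2 were, like Ccr2, uneven within Control. The decoys Ccrl2 and Ackr1 were even there, Ackr1 at a very low level. Ccr1, a receptor of CCL3, CCL5 and CCL7, was at 2.63, 18.5 and 13.1 FPKM in Control, 3.43, 3.56 and 3.69 FPKM in Lenvatinib+anti-PD1 and 12.6, 14.4 and 13.1 FPKM in Co+Len@OVA+anti-PD1. It rose in Co+Len@OVA+anti-PD1 against Lenvatinib+anti-PD1 by 1.77 on the log2 scale (adjusted p 0.0484 in limma) and passed in no other comparison. Ccr2 was 61.8% to 65.7% of Ccr1 in Lenvatinib+anti-PD1 but 18.2% to 35.9% in Co+Len@OVA+anti-PD1, and 17.7% to 34.9% in Control. Ccr8, the receptor of CCL8, was at 0.650 to 2.42 FPKM in Control, 1.23 to 1.77 in Lenvatinib+anti-PD1 and 1.80 to 2.99 in Co+Len@OVA+anti-PD1, and passed in none. Ccr3, the eosinophil receptor, was too low to be tested, listed at 0 in Control library 1 and at 1.61 and 1.26 FPKM in the other two, and at no more than 0.111 FPKM in any treated library. Ccrl2, an atypical receptor, was at 4.31 to 5.34 FPKM in Control, 2.57 to 3.21 in Lenvatinib+anti-PD1 and 7.14 to 8.86 in Co+Len@OVA+anti-PD1. It rose by 0.61 in Co+Len@OVA+anti-PD1 against Control (adjusted p 0.00673 in limma) and fell by 0.70 in Lenvatinib+anti-PD1 against Control (adjusted p 0.00507). Ackr1, a chemokine-binding receptor of venules, was at 0.0800 to 0.0847 FPKM in Control, 0.342 to 1.03 in Lenvatinib+anti-PD1 and 0.185 to 1.64 in Co+Len@OVA+anti-PD1, and passed in none. Ackr2, a scavenger of inflammatory CC chemokines, was too low to be tested, at 0.0661 to 0.397 FPKM over the 9 libraries. In Control it was at 0.0787, 0.340 and 0.372 FPKM. Of the 6 receptors and decoys described, 4 were tested: 1 rose and 0 fell in Co+Len@OVA+anti-PD1 against Control, 0 rose and 1 fell in Lenvatinib+anti-PD1 against Control, and 2 rose and 0 fell between the treatments. Without the third libraries these counts were 0, 0 and 1 of 4 passing, with 1 at an unadjusted p under 0.05 in each comparison.

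**Figure D4:**
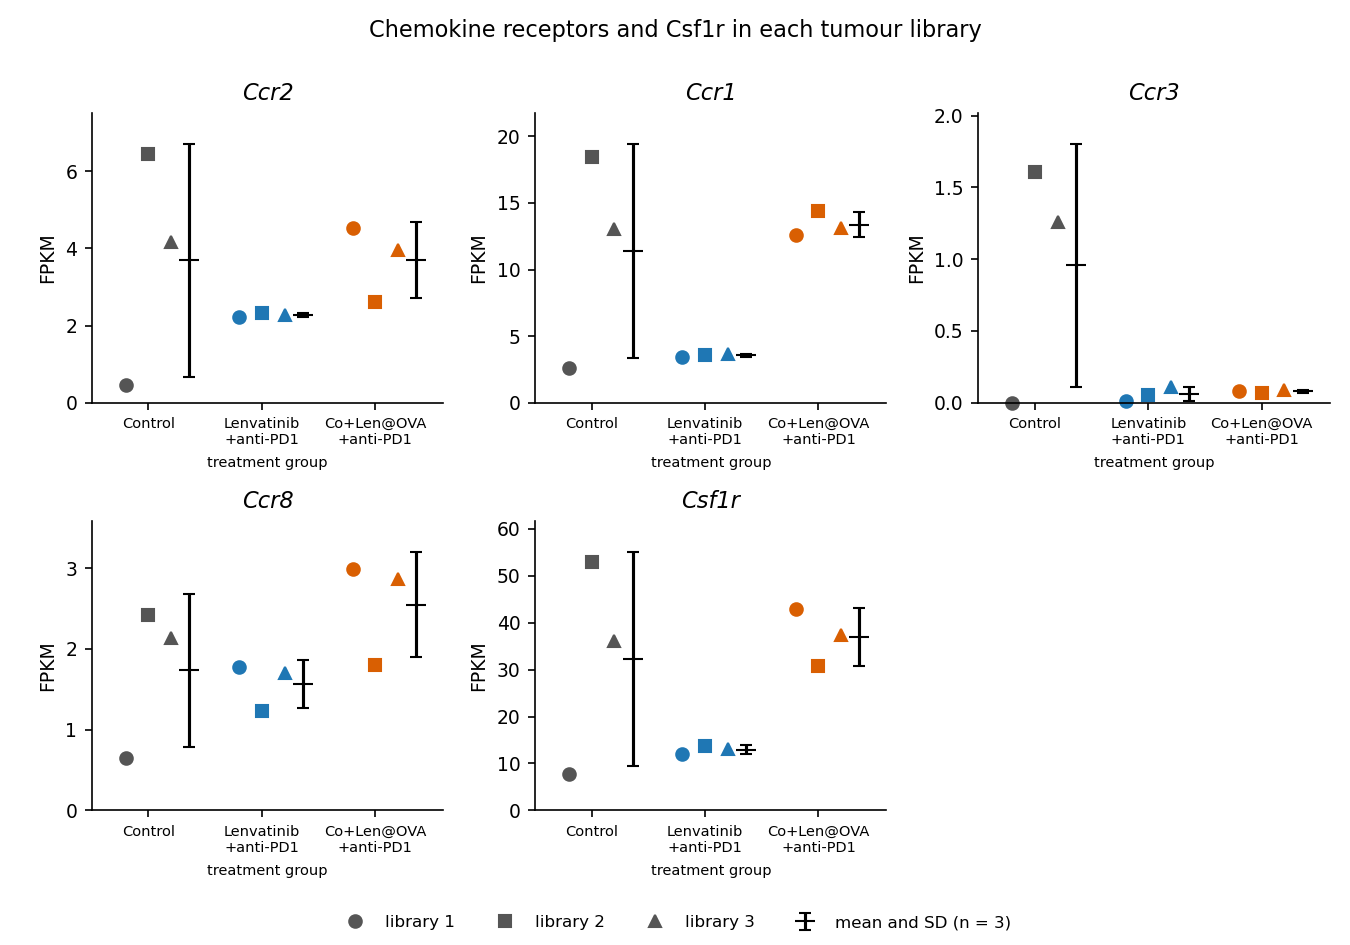
Level in FPKM (vertical axes, linear, from 0) of Ccr2, the receptors Ccr1, Ccr3 and Ccr8, and Csf1r in each library, by treatment group. Symbols are single libraries (circle 1, square 2, triangle 3), and black marks are the mean and SD (n = 3). Control library 1 is the lowest point of every panel, and the other two Control libraries are above all Lenvatinib+anti-PD1 libraries for each gene shown.

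The Ly6 relatives of Ly6c2 did not all move with it. Ly6c1 was at 97.1, 103 and 102 FPKM in Control, 107, 100 and 110 FPKM in Lenvatinib+anti-PD1 and 143, 149 and 148 FPKM in Co+Len@OVA+anti-PD1. It rose by 0.54 against Control (adjusted p 0.000607 in limma) and by 0.47 against Lenvatinib+anti-PD1 (adjusted p 0.000851) on the log2 scale. Ly6c2 was 3.39% to 5.01% of Ly6c1 in Control, 2.83% to 3.18% in Lenvatinib+anti-PD1 and 5.03% to 5.85% in Co+Len@OVA+anti-PD1, so the difference in Ly6c2 was larger than that in its paralog. Ly6i and Ly6a, interferon-responsive relatives, rose against Control in both treated groups, Ly6i by 1.67 and 0.83 and Ly6a by 1.13 and 0.72. Ly6g, the neutrophil antigen, fell by 0.63 in Co+Len@OVA+anti-PD1 (adjusted p 0.0311) and by 1.41 in Lenvatinib+anti-PD1 (adjusted p 0.00166). Of the 6 relatives listed, 3 rose and 1 fell in Co+Len@OVA+anti-PD1 against Control, 2 rose and 2 fell in Lenvatinib+anti-PD1 against Control, and 6 rose between the treatments. With libraries 1 and 2 alone, 1, 0 and 0 passed in these comparisons, in the same order, and 3, 3 and 4 had an unadjusted p under 0.05.

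Other inflammatory CC chemokines showed both patterns seen among the 4. Ccl3 and Ccl4, made by macrophages and T cells, rose against Control in both treated groups in limma, Ccl3 by 2.39 and 1.28 and Ccl4 by 2.83 and 1.53 on the log2 scale, and both rose again in Co+Len@OVA+anti-PD1 against Lenvatinib+anti-PD1. Ccl5, a product of activated T cells, was shaped like Ccl8, at 19.02, 36.8 and 33.2 FPKM in Control, 37.2, 36.7 and 37.5 FPKM in Lenvatinib+anti-PD1 and 190, 121 and 164 FPKM in Co+Len@OVA+anti-PD1. It rose by 2.42 against Control (adjusted p 0.000518) and by 2.05 against Lenvatinib+anti-PD1 (adjusted p 0.000819). Of the 2 neighbouring chemokine genes listed, the eotaxin Ccl11 and Ccl1, which is not an eotaxin, only Ccl1 passed. It rose by 0.74 in Lenvatinib+anti-PD1 against Control (adjusted p 0.0399 in limma). Ccl17, a chemokine of dendritic cells, fell in both treated groups, by 1.39 and 1.51. Of the 8 inflammatory CC chemokines listed apart from these 2, 3 rose and 1 fell in Co+Len@OVA+anti-PD1 against Control, 2 rose and 1 fell in Lenvatinib+anti-PD1 against Control, and 4 rose and 0 fell between the treatments.

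Several cytokines and regulators known to induce Ccl2 rose in both treated groups. Of 15 tested, 9 rose and 1 fell in Co+Len@OVA+anti-PD1 against Control, and 7 rose and 1 fell in Lenvatinib+anti-PD1 against Control, with medians of 0.74 and 0.27 beside 0.13 and 0.05 over all genes. Between the treatments 2 rose and 0 fell. Il1b was at 1.63, 3.21 and 3.08 FPKM in Control, 5.59, 5.55 and 5.42 FPKM in Lenvatinib+anti-PD1 and 9.47, 12.3 and 11.5 FPKM in Co+Len@OVA+anti-PD1, and rose in all 3 comparisons, by 1.92, 0.98 and 0.94 on the log2 scale in limma. Tnf rose against Control by 1.34 in Co+Len@OVA+anti-PD1 and 1.16 in Lenvatinib+anti-PD1 and differed by 0.18 between them (adjusted p 0.52). Ifng, the T cell interferon, rose by 1.99 and 1.31 against Control, and its difference of 0.68 between the treatments did not pass (adjusted p 0.081). Csf1, the growth factor of monocytes and macrophages, followed Ccl8 rather than Tnf, rising by 1.47 against Control and 1.22 against Lenvatinib+anti-PD1, with 0.25 between Lenvatinib+anti-PD1 and Control (adjusted p 0.32). Icam1, an adhesion molecule for leukocytes on vessels, rose in the same 2 comparisons, by 1.38 and 1.27. Without the third libraries none of the inducers, of these chemokines or of the growth factor and transcription factor list passed in limma in any comparison, and at an unadjusted p under 0.05 the inducers numbered 8, 8 and 1.

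Markers of classical monocytes gave the context for Ccr2 and Ly6c2. Of 15 markers, 6 rose and 2 fell in Co+Len@OVA+anti-PD1 against Control (median 0.67), 0 rose and 6 fell in Lenvatinib+anti-PD1 against Control (median -0.51), and 11 rose and 0 fell between the treatments (median 1.56). The order of the medians is that of Ly6c2, lowest in Lenvatinib+anti-PD1 and highest in Co+Len@OVA+anti-PD1. That order was not particular to these markers. Against Control, macrophage markers had medians of -0.81 in Lenvatinib+anti-PD1 and 0.92 in Co+Len@OVA+anti-PD1, and B cell markers of -0.48 and 0.88. Chil3, a secreted lectin of these cells, fell by 3.31 in Lenvatinib+anti-PD1 against Control and rose by 2.80 in Co+Len@OVA+anti-PD1 against Lenvatinib+anti-PD1 on the log2 scale. Lyz2, the lysozyme of myeloid cells, rose by 2.25 against Control and 2.23 against Lenvatinib+anti-PD1. Plac8 went the other way from Ly6c2 in Co+Len@OVA+anti-PD1, falling by 0.29 against Control (adjusted p 0.0065 in limma). The 15 markers summed to 565 to 858 FPKM in Control, 535 to 589 in Lenvatinib+anti-PD1 and 1428 to 1568 in Co+Len@OVA+anti-PD1. Lyz2 alone was at 90.9 to 317, 172 to 231 and 881 to 1004 FPKM in these groups. The higher sum in Co+Len@OVA+anti-PD1 was thus mostly that of Lyz2. Without the third libraries, 0, 1 and 4 of the 15 passed in the 3 comparisons, and 6, 5 and 9 had an unadjusted p under 0.05.

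Fewer macrophage than monocyte markers passed against Control. Of 12, 2 rose and 0 fell in Co+Len@OVA+anti-PD1 against Control, 0 rose or fell in Lenvatinib+anti-PD1 against Control, and 6 rose and 0 fell between the treatments. The medians were 0.92, -0.81 and 1.72 in the same order. They were larger in size than the 0.67, -0.51 and 1.56 of the classical monocyte markers, so only the counts were lower. The 12 markers, of which Apoe was the most abundant, summed to 3418 to 3616 FPKM in Control, 2845 to 2996 in Lenvatinib+anti-PD1 and 4194 to 4471 in Co+Len@OVA+anti-PD1, with no overlap. The sum did not follow Csf1r within Control. It was 3513.5 FPKM in library 1 and 3418.3 FPKM in library 2, where Csf1r was at 7.80 and 53.0 FPKM. Without the third libraries 0 passed in any comparison, and 1, 0 and 4 had an unadjusted p under 0.05. Csf1r itself passed in none, at 0.55 (adjusted p 0.49), -0.92 (adjusted p 0.29) and 1.47 (adjusted p 0.092). Cx3cr1, a receptor of patrolling monocytes and macrophages, rose by 1.49 in Co+Len@OVA+anti-PD1 against Control (adjusted p 0.0408).

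Other cells can also carry Ly6C. Of 10 T cell markers, 9 rose in Co+Len@OVA+anti-PD1 against Control and 7 against Lenvatinib+anti-PD1, and none passed between Lenvatinib+anti-PD1 and Control. Their sum was 19.7 to 86.8 FPKM in Control, 65.8 to 71.1 in Lenvatinib+anti-PD1 and 168 to 244 in Co+Len@OVA+anti-PD1, and Cd8a rose by 2.22 and 1.57. With libraries 1 and 2 alone, 0 of the 10 passed in any comparison, and 9, 0 and 6 had an unadjusted p under 0.05. Of 7 plasmacytoid dendritic cell markers 3 were tested, and Siglech, their defining gene, was at 0.0170 to 0.186, 0.0429 to 0.0681 and 0.149 to 0.759 FPKM in the 3 groups. Of 8 hepatocyte markers 8 fell in Co+Len@OVA+anti-PD1 against Control and 7 against Lenvatinib+anti-PD1, and their sum was 2396 to 5554 FPKM in Control, 3450 to 3648 in Lenvatinib+anti-PD1 and 774 to 1105 in Co+Len@OVA+anti-PD1. Only 2, 0 and 4 hepatocyte markers passed when the third libraries were left out. Erythroid markers, a measure of blood, were highest in Co+Len@OVA+anti-PD1, as were the chemokines, and 5 of 5 rose there against both other groups. Their sums were 295 to 602 FPKM in Control, 176 to 433 in Lenvatinib+anti-PD1 and 2063 to 2994 in Co+Len@OVA+anti-PD1. In Lenvatinib+anti-PD1 against Control their median was -0.68 with none passing. Of the 6 genes described, Ccl2, Ccl7 and Ccl12 had positive fold changes in that comparison, and only Ccl7 passed. Those of Ccl8, Ccr2 and Ly6c2 were negative, and none of them passed. Of 8 neutrophil markers, 1 rose and 2 fell in Co+Len@OVA+anti-PD1 against Control, 7 fell in Lenvatinib+anti-PD1 against Control, and 7 rose between the treatments, with sums of 113 to 132, 23.3 to 35.7 and 84.7 to 161 FPKM in the 3 groups. No erythroid or neutrophil marker passed when the third libraries were left out, and 5, 0 and 5 erythroid and 1, 6 and 6 neutrophil markers had an unadjusted p under 0.05. Within Control, library 1 had the highest hepatocyte sum and the lowest level of all 6 genes and of the T cell sum. The part of these cells in the levels of the chemokines, Ccr2 and Ly6c2 was not tested.

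The genes whose levels ran most like each of the 6 over the 9 libraries were found by Pearson's r of log2(FPKM + 0.5) among tested genes averaging 2 FPKM or more. The libraries fall into 3 groups and include the third libraries, so these are descriptions. Ankrd10, Numa1 and Klhl2 were nearest to Ccl2 (r 0.995, 0.991 and 0.989), and Ccnc, Spop and Plaat3 to Ccl7 (r 0.990, 0.988 and 0.988). Fuca2, Tubgcp3 and Tank were nearest to Ccl8 (r 0.996, 0.995 and 0.994), and Cstf2t, Il21r and Cept1 to Ccl12 (r 0.994, 0.994 and 0.993). Slamf9, Senp5 and Gopc were nearest to Ccr2 (r 0.991, 0.985 and 0.985), and Ifngr2, Rab5c and Igkv12-46 to Ly6c2 (r 0.997, 0.991 and 0.989). Among the 6 themselves, r was 0.97 between Ccl2 and Ccl12, 0.95 between Ccl2 and Ccl7 and 0.97 between Ccl8 and Ly6c2. Between Ccr2 and the ligands it was 0.54 for Ccl2, 0.40 for Ccl7, 0.60 for Ccl12 and 0.66 for Ccl8, against 0.90 between Ccr2 and Csf1r. Csf1r also had an r of 0.83 with Ccl8 and 0.82 with Ly6c2.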

How the data were processed

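Gene expression was measured in 9 mouse tumours by paired-end sequencing of strand-marked polyadenylated RNA, per the labels' protocols. Tools listed by the submitters' processing notes are fastp, StringTie and edgeR, with neither version nor order. Which aligner, build and gene models were used is not given in the sources used here. The values the authors deposited are FPKM, per the file headers, in a table named as raw counts. Low values lay within 0.05 of whole fragments for 10.2% to 19.4% of cases (10% by chance), so no counts were recovered and depth is unknown.

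Groups came from the sample titles. All 9 libraries were fitted in limma 3.58.1 (R 4.3.3, 6 residual degrees of freedom) on log2(FPKM + 0.5), with a mean-variance trend and robust variance, for the 15353 of 32761 genes that averaged 0.5 FPKM or more. Adjusted p-values are Benjamini-Hochberg over all genes of a comparison, with a threshold of 0.05. "Rose" and "fell" mean that this threshold was passed in this fit. Whether replicates came from separate animals is not stated beyond 3 tumours per group, so p-values measure the spread between these samples. The 6 genes, the 26 lists of markers and pathways and the alternatives (other pseudocounts, filters, scale factors and variance models, fits of 2 groups or without single libraries or library 3 of each group, and a replicate block) were chosen with earlier results of these data known. Named genes are the 6, every gene of the receptor, Ly6 and neighbouring-chemokine lists, up to 3 leading genes called per other list and comparison, some fixed cell type genes, and the 3 genes most like each of the 6; a selection is printed, and 1 gene is not reported here. Plac8 and the ratios to Csf1r, Ly6c1 and Ccr1 were picked after their values were seen. The fit was tested on simulated data with 15353 genes: it recovered 78%, 84% and 81% of 2-fold changes in the 3 comparisons, with 7, 10 and 6 false calls. The simulated libraries were independent, with normal noise, and only genes with a mean log2(FPKM + 0.5) above 1 were changed. These figures therefore do not cover low genes, nor data in which library 3 lies close to a mean of the other libraries. Sequences were read from RefSeq (GRCm38.p6) and GENCODE M21 with Biopython 1.88 in Python 3.11.15. Protein sequences and promoter windows of Ccl2 and Ccl7 were not used here.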

Additional observations from a re-analysis of the deposited data

How the results depend on the processing

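Of 360 alternatives for single genes and comparisons, 316 kept direction and side of the threshold, 30 lost the call, 10 gained one and 4 turned direction. All 4 were Ccr2: -0.47 in Co+Len@OVA+anti-PD1 against Control without Control library 1, and, for Lenvatinib+anti-PD1 against Control, 0.10 from libraries 1 and 2, 0.39 without Control library 2 and 0.10 without Control library 3. Over all single-library omissions these 2 values ran from -0.47 to 0.96 and from -1.03 to 0.39. From libraries 1 and 2, where fewer samples enter, 0 of the 6 genes and 80, 53 and 365 of all genes passed in the 3 comparisons. For Lenvatinib+anti-PD1 against Control the count of 1 of 6 became 0 with no filter and with only the 2 groups, and 2 under median-of-ratios scaling, upper quartile scaling and the replicate block. With only the 2 groups, 3279 genes passed in Co+Len@OVA+anti-PD1 against Control, against 5155. Leaving out 1 library at a time gave 5 to 5, 0 to 3 and 2 to 5 of the 6 genes, and 2849 to 5770, 1957 to 5053 and 2381 to 6592 of all genes. The lowest count, 2 of 6 in Co+Len@OVA+anti-PD1 against Lenvatinib+anti-PD1, came without the third library of either group. In Lenvatinib+anti-PD1 against Control, 0 of 6 came without any 1 of the Co+Len@OVA+anti-PD1 libraries, Lenvatinib+anti-PD1 library 2 or 3, or Control library 3, and 3 of 6 came without Control library 1. The counts of all genes fell by over 1.5 times without Co+Len@OVA+anti-PD1 library 3 (2849) against Control. The same held for Lenvatinib+anti-PD1 against Control without Lenvatinib+anti-PD1 library 2 (2410), its library 3 (1957) or Control library 3 (2138), and between the treatments without Co+Len@OVA+anti-PD1 library 3 (2381) or Lenvatinib+anti-PD1 library 1 (2900) or 3 (2525). Other scalings moved the median of all genes in Co+Len@OVA+anti-PD1 against Control from 0.13 to 0.02 (median-of-ratios) and -0.06 (upper quartile), and the split from 3209 higher and 1946 lower to 2209 and 2702, and 1637 and 2997; under both, 5 of 6 genes still rose. The cause of these changes was not tested.

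Replicate numbers share only a number: the correlation of deviations between same-numbered libraries was -0.293 to 0.103. With the replicate block, 5, 2 and 5 of the 6 genes and 4025, 2753 and 3307 of all genes passed. It added Ccl2 (adjusted p 0.0449) in Lenvatinib+anti-PD1 against Control and Ccl7 (adjusted p 0.0402) between the treatments.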
